A study of Mus musculus with 10 samples.

Results

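IGHV1-9 is 1 gene segment of the mouse immunoglobulin heavy-chain locus, and the sequences described here are the productive heavy-chain receptor sequences whose V call names that gene alone. They numbered 9603 of 313384 productive heavy-chain sequences. A joining gene and junction found in several mice was kept in the mouse with the most counts, which set aside 69 of 9672 IGHV1-9 sequences. The sequences came from 10 C57BL/6 wild-type mice with GL261 glioma cells, a mouse glioma line, implanted in the brain, and the treatments were isotype control IgG (n = 5) and anti-CTLA-4 (n = 5), which blocks a receptor that restrains T cells. Deep cervical lymph nodes were taken on day 20, and each mouse gave 1 bulk B cell receptor library from RNA, with no sorting of cells named in the labels. IGHV1-9 was chosen from its share of IgG clonotypes in the 2 groups, so its IgG values by group are given as a description without a test.

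A heavy-chain variable region is assembled from a V, a D and a J segment, and the junction where they meet encodes CDR3, the loop that differs most between antibodies. Naive B cells carry IgM and IgD. After activation the same rearrangement can be joined to IgG, IgA or IgE constant genes, and germinal centre cells add point mutations to the V segment, often at the C of WRC or the G of GYW motifs. IGHV1-9 belongs to the large IGHV1 (J558) family, and the gene table used here places it between Ighv15-2 and the pseudogene Ighv1-10. Its nearest relatives among the V sequences of the files were IGHV1-63 and IGHV1-77, each with 30 differing bases of 285 (89.5% identity), followed by IGHV1-56 with 31 (89.1%). With that distance, joint calls were rare, and 1 sequence in the series was called jointly with another gene.

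The germline segment against which V mismatches were counted, from its first base to the last base before the junction, is shown first, with CDR1 and CDR2 in capitals, since the positions named below count from its first base. It was the germline of 9442 of 9672 IGHV1-9 sequences, the others having a different aligned stretch.
IGHV1-9 germline V before the junction: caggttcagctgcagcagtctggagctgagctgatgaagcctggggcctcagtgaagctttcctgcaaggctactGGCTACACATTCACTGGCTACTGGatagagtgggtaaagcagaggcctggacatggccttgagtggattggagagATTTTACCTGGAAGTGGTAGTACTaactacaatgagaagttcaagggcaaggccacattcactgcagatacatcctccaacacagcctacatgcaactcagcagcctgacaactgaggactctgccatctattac

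The junctions of the largest IGHV1-9 IgG lineage of each mouse that had one, and of every lineage with an IgG count of at least 1000, are shown next because they hold nearly all IGHV1-9 IgG counts. A lineage joins rearrangements of a mouse with the same V and J genes and junction length at 90% or more junction identity. Capitals mark the bases between the end of V and the start of J, which hold the D segment and the bases added at the joins.
anti-CTLA-4 replicate 5, first, IGHJ3: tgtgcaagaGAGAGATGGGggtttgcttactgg
anti-CTLA-4 replicate 5, second, IGHJ4: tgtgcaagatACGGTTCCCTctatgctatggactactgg
anti-CTLA-4 replicate 3, first, IGHJ1: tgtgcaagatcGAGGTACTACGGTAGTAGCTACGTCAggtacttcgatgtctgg
anti-CTLA-4 replicate 3, second, IGHJ4: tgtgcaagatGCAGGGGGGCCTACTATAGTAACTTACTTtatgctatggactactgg
anti-CTLA-4 replicate 2, IGHJ2: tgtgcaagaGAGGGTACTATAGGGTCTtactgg
anti-CTLA-4 replicate 1, IGHJ2: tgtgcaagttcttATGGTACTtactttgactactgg
anti-CTLA-4 replicate 4, IGHJ3: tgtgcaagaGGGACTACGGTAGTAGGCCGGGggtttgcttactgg
isotype replicate 2, IGHJ2: tgtgcaagatGGGGTtactctgactactgg
isotype replicate 3, IGHJ4: tgtgTCCCCGGGGGAAAGatggactactgg
isotype replicate 1, IGHJ3: tgtgcaagGAACGGTtttacttactgg
The 10 junctions use all 4 J genes and have 7 to 17 residues in CDR3, so they do not share a common junction. Isotype replicates 4 and 5 had no IGHV1-9 IgG sequence.

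Libraries held 33568 to 63017 receptor sequences and a productive heavy-chain count of 159157 to 362445. Whether the deposited counts are reads or molecules is unknown here, so the intervals and limits given cover counting error alone. Of 8370 IGHV1-9 rearrangements, 50 occurred in several mice, 10 of them with tied counts, which were kept in each tied mouse. In all 11 of these with a count of at least 50, the mouse with the second most counts was of the same group and numbered next to the first. The first lineage of anti-CTLA-4 replicate 3 had a main junction with a count of 6758 there and 85 in replicate 4, and the second had 4767 there and 262 in replicate 4. Assignment moved anti-CTLA-4 replicate 4 most, from 6 to 2 IgG clonotypes and from an IgG count of 476 to 127. A clonotype here is a V call, J gene, junction and class within a mouse. Separately, 3 of 147 IGHV1-9 IgG clonotypes, each with a count of 1, had a J gene and junction that held more counts under another V call of the same mouse. In isotype replicate 1 such a clonotype shared its junction with an IGHV1-50 rearrangement of count 24344, and in anti-CTLA-4 replicate 3 another shared its junction with an IGHV1-49 rearrangement of count 47115.

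IGHV1-9 made up a larger share of IgG clonotypes in anti-CTLA-4 mice, with most of the gap in replicates 3 and 5. The share was 2.41%, 2.51%, 1.01%, 0% and 0% in isotype replicates 1 to 5 and 2.68%, 2.84%, 5.54%, 1.03% and 15.1% in anti-CTLA-4 replicates 1 to 5. The 0 values rest on 117 and 159 IgG clonotypes, which allow shares of up to 2.56% and 1.89%. The groups overlapped through anti-CTLA-4 replicate 4, while the other 4 anti-CTLA-4 mice lay above every isotype mouse. Means were 1.19% ± 1.23 (SD, n = 5) after isotype antibody and 5.44% ± 5.64 (SD, n = 5) after anti-CTLA-4, a difference of 4.25 percentage points. Without anti-CTLA-4 replicate 5 the difference was 1.83. By mean share IGHV1-9 ranked 27th of 108 V calls in IgG of isotype mice and 1st in IgG of anti-CTLA-4 mice. Within single mice it ranked 1st in anti-CTLA-4 replicate 5 and 3rd in replicate 3, but 12th, 11th and 27th in replicates 1, 2 and 4.

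Deposited counts, which depend on transcript per cell as well as on the number of cells, spread far more than clonotypes. IGHV1-9 held 0.0188%, 1.32%, 0.177%, 0% and 0% of IgG counts in isotype replicates 1 to 5, and 0.0975%, 0.748%, 4.86%, 0.953% and 39.0% in anti-CTLA-4 replicates 1 to 5. Anti-CTLA-4 replicate 5 stood apart, replicate 3 was next, and replicates 1, 2 and 4 lay within the isotype range. The means were 0.303% ± 0.573 and 9.13% ± 16.8 (SD, n = 5 each). In bulk RNA, more cells of a clone and more transcript per cell cannot be told apart.

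Counted as lineages, IgG use of the gene was more even. The number of IGHV1-9 lineages with IgG was 5, 5, 5, 0 and 0 in isotype replicates 1 to 5 and 4, 15, 12, 1 and 8 in anti-CTLA-4 replicates 1 to 5, 55 in all. In replicate 3, 2 of the 12 lineages had the same junction, ARRGYYYGSRVFDY, called IGHJ2 with an IgG count of 28 and IGHJ4 with 1, so this junction is counted under both J calls. In anti-CTLA-4 replicate 5, 1 of the 8 lineages, GERWGFAY with an IgG count of 1, has the junction of its first lineage with some bases missing (8 residues against 9). A lineage needs equal junction length, so it is counted apart. As a share of all IgG lineages, IGHV1-9 lineages were 3.52%, 2.40%, 1.90%, 0% and 0% against 2.05%, 4.30%, 4.12%, 0.840% and 4.94%. The means were 1.57% ± 1.54 and 3.25% ± 1.73 (SD, n = 5 each). Anti-CTLA-4 replicates 2, 3 and 5 lay above every isotype mouse, and replicates 1 and 4 lay within the isotype range. The gap of 1.69 percentage points by lineage compares with 4.25 by clonotype. In numbers of lineages the means differed by 5, or by 2.4 among clonotypes with a count of at least 2. In anti-CTLA-4 replicate 5 the 53 IgG clonotypes fell into 8 lineages, 6.63 clonotypes per lineage, and 47 of them belonged to the 2 largest. Other V calls in that mouse had 1.94 IgG clonotypes per lineage.

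**Figure D1:**
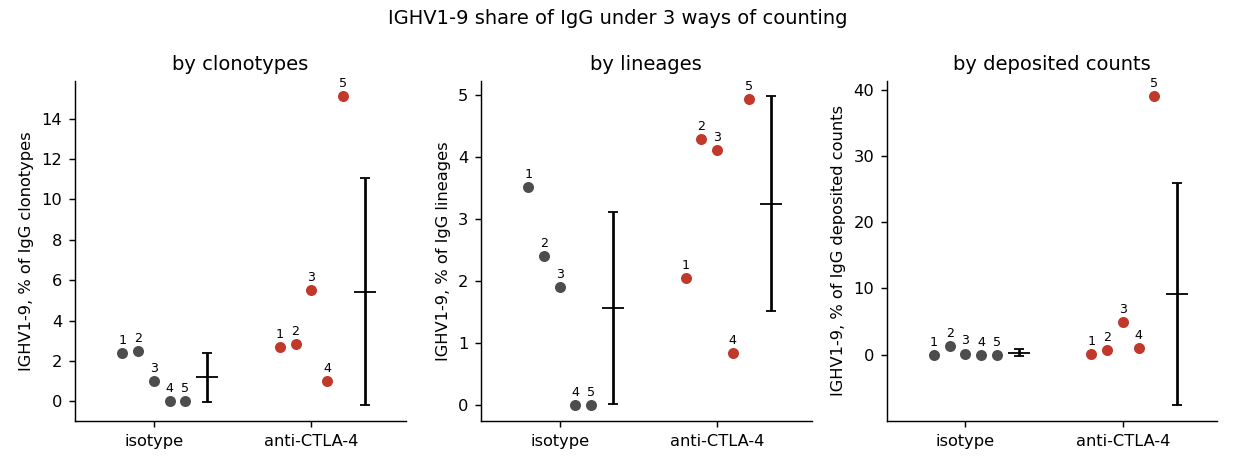
IGHV1-9 share of IgG in percent for each mouse (points, labelled with the replicate number), counted by clonotypes, by lineages and by deposited counts, with the mean and SD of each group of 5 mice at its right. Anti-CTLA-4 replicate 5 lies at 15.1% of clonotypes, 4.94% of lineages and 39.0% of counts.

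The 2 leading lineages of anti-CTLA-4 replicate 5 made up 75.2% and 24.6% of its IGHV1-9 IgG counts. The first, with CDR3 ARERWGFAY, had an IgG count of 27840, 29.3% of all IgG counts of the mouse, of which 19771 was called IgG2c. It was nearly all IgG, with an IgM count of 10. Its 247 IgG sequences held 23 junctions, but the most counted junction took 97.3% of the counts, and 18 of the other junctions differed from it by 1 base. The second, with CDR3 ARYGSLYAMDY, had an IgG count of 9124, 9.60% of the mouse's IgG, beside an IgM count of 57 and an IgD count of 2. Its 24 IgG junctions were likewise led by 1 with 98.6% of the counts, and 16 of them had a count of 1. IgG2b and IgG2c, closely similar constant genes, are given as called in the deposited tables.

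Anti-CTLA-4 replicate 3 held the other 2 lineages above a count of 1000. Its first, a 16-residue CDR3 with IGHJ1 and an IGHD1-1 segment, had an IgG count of 6808, 2.94% of that mouse's IgG, and spanned 3 classes, with an IgM count of 13 and an IgE count of 125. Its second, a 17-residue CDR3 with IGHJ4, had an IgG count of 4162, 1.80% of the IgG, beside an IgM count of 652. The most counted IgG sequence of each of these 4 lineages matched the germline segment at every V base compared.

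Lineages in the remaining mice were smaller. In anti-CTLA-4 replicate 2, AREGTIGSY led with an IgG count of 272, mostly IgG1 (261). Its 15 IgG lineages were the most of any mouse, 9 of them with IgM or IgD as well. In anti-CTLA-4 replicate 1, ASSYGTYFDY had an IgG count of 254, and the 1 lineage of replicate 4 had 127. Among isotype mice, ARWGYSDY of replicate 2 reached 784 beside an IgM count of 241, VPGGKMDY of replicate 3 reached 96, and ARNGFTY of replicate 1 reached 6. Over both groups, 25 of 55 IgG lineages also held IgM or IgD, 2 also held IgA and 19 had an IgG count of 1. Of IGHV1-9 IgG rearrangements, 1 of 7, 3 of 11 and 1 of 5 also held IgM or IgD in isotype replicates 1 to 3. In anti-CTLA-4 replicates 1 to 5 it was 0 of 14, 8 of 22, 7 of 33, 0 of 2 and 3 of 53. Other V calls had 51 of 284, 101 of 427 and 88 of 491 in those isotype mice. In anti-CTLA-4 mice they had 107 of 508, 192 of 754, 146 of 563, 35 of 193 and 67 of 298. An IgG count of 50 or more was found in 17 lineages, namely 12 of 40 in anti-CTLA-4 mice and 5 of 15 in isotype mice. By clonotype, that count was reached by 20 of 124 IGHV1-9 IgG clonotypes in anti-CTLA-4 mice and 5 of 23 in isotype mice. For other V calls it was 346 of 2316 and 221 of 1478.

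**Figure D2:**
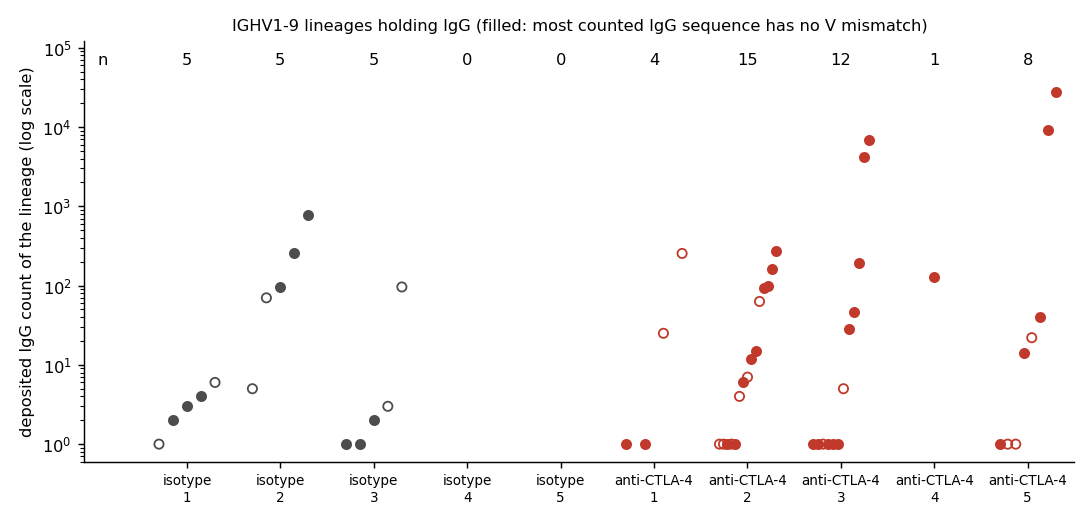
Deposited IgG count on a log scale of every IGHV1-9 lineage holding IgG (points), by mouse, with the number of lineages above; open points are lineages whose most counted IgG sequence has at least 1 V mismatch. The 4 lineages above 1000 are in anti-CTLA-4 replicates 3 and 5, and all 4 are filled.

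Loops like those of the largest lineages were looked for in the other mice. Rearrangements of IGHV1-9 with the same J gene and a CDR3 of the same length at most 2 residues from ARERWGFAY numbered 24 in anti-CTLA-4 replicate 5 and 4 in other mice, where they summed to a count of 8, with no IgG among them. For ARYGSLYAMDY the numbers were 25 in the same mouse and 10 in 6 other mice, with a count of 13 and again no IgG. For the 16-residue loop of anti-CTLA-4 replicate 3 they were 14 and 4, and the 4 had a count of 89, most of it the shared copy in replicate 4 given above, and included 3 IgG clonotypes. For the 17-residue loop they were 11 and 1, and the 1 had a count of 261 with 1 IgG clonotype. This 1 was likewise the shared copy in replicate 4 given above. Under other V calls, 129 rearrangements over all mice came this close to ARERWGFAY and 311 to ARYGSLYAMDY, so loops this close to both were also present with other V segments. Outside anti-CTLA-4 replicate 5 they included 0 IgG clonotypes for ARERWGFAY and 6 for ARYGSLYAMDY.

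As a share of its own rearrangements, IGHV1-9 was switched to IgG in 1.02%, 0.936%, 0.552%, 0% and 0% in isotype replicates 1 to 5 and in 2.28%, 3.55%, 5.14%, 0.166% and 4.93% in anti-CTLA-4 replicates 1 to 5. Other V calls had 1.01% ± 0.448 and 2.13% ± 1.35 (SD, n = 5 each) with IgG, compared with 0.502% ± 0.491 and 3.21% ± 2.06 for IGHV1-9. The IGHV1-9 value lay above that of other V calls in anti-CTLA-4 replicates 3 and 5 and below it in the other 8 mice. These shares count rearrangements, and variants within a lineage each count. In anti-CTLA-4 replicate 5, 47 of the 53 with IgG belonged to 2 lineages, and in replicate 3 it was 22 of 33. By lineage, IgG was held by 8 of 955 IGHV1-9 lineages in replicate 5 and 12 of 590 in replicate 3.

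In IgM and IgD, the classes of naive cells, use of IGHV1-9 differed little between the groups. It was 2.80%, 2.90%, 2.87%, 2.80% and 2.90% of IgM clonotypes in isotype replicates 1 to 5 and 2.80%, 2.89%, 3.05%, 3.12% and 3.33% in anti-CTLA-4 replicates 1 to 5. Anti-CTLA-4 replicates 3, 4 and 5 lay above every isotype mouse, and replicates 1 and 2 did not. The log2 fold change was 0.10 (SE 0.05, 95% interval -0.00 to 0.20). It did not pass edgeR's quasi-likelihood test across IGHV calls, with an unadjusted p of 0.0610 and a Benjamini-Hochberg adjusted p of 0.401. In that fit 1 of 92 IGHV calls passed, or 1.09%, namely IGHV12-3, and 11 had an unadjusted p under 0.05. IGHV1-9 ranked 14th by p. Its log2 fold change was 0.78 by deposited counts and 0.00132 among clonotypes with a count of at least 2, with edgeR adjusted p of 0.419 and 0.997. Of 47 other IGHV1 family calls 0 passed, 4 with an unadjusted p under 0.05 by edgeR, and DESeq2 also called 0 of 47, with 3. Their median log2 fold change was 0.00, against -0.01 over all calls.

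IgD gave a like picture, at 2.89%, 3.07%, 3.30%, 3.06% and 3.46% of clonotypes in isotype replicates 1 to 5 and 3.47%, 3.41%, 3.43%, 3.06% and 3.35% in anti-CTLA-4 replicates 1 to 5. The groups overlapped. The log2 fold change was 0.07 (SE 0.07, 95% interval -0.07 to 0.21), with an adjusted p of 0.896 by edgeR. Of 76 IGHV calls 0 passed (0%), 3 with an unadjusted p under 0.05, and DESeq2 called 0 with 0 unadjusted. IGHV1-9 ranked 9th among V calls in IgM and 9th in IgD over all mice. In IgM counts, anti-CTLA-4 replicate 3 stood at 7.73%, above 1.26% to 2.94% in the other 9 mice. Its lineage ATLFDY, with an IgM count of 1749 and an IgG count of 5, was the largest IGHV1-9 IgM lineage of the series.

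**Figure D3:**
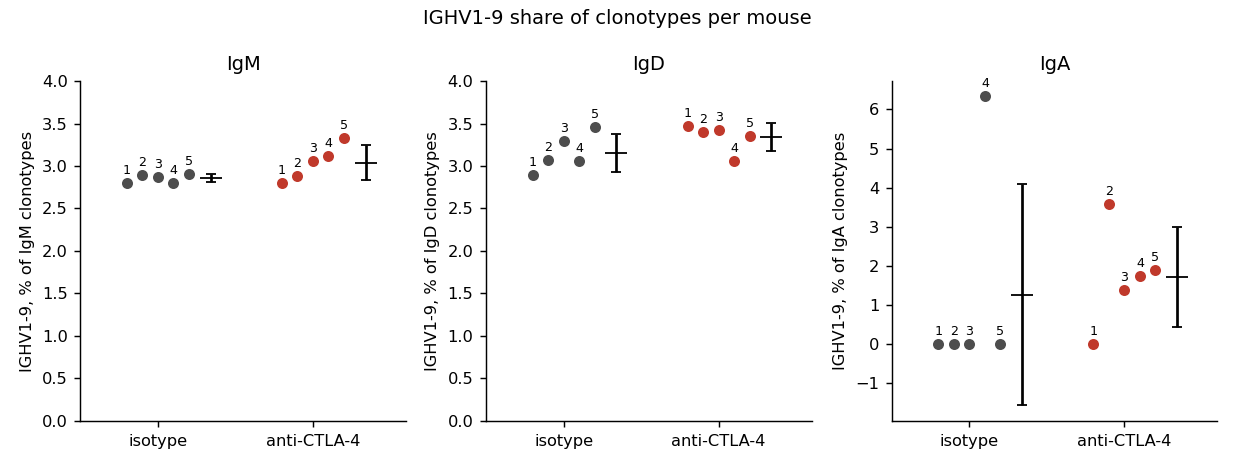
IGHV1-9 share in percent of IgM, IgD and IgA clonotypes for each mouse (points, labelled with the replicate number), with the mean and SD of each group of 5 mice at its right. IgM and IgD shares lie between 2.80% and 3.47% in every mouse, and IgA shares between 0% and 6.33%.

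IgA and IgE, the classes of mucosal secretion and of allergic responses, held few IGHV1-9 clonotypes. In IgA the share was 0% in isotype replicates 1, 2, 3 and 5 and 6.33% (10 of 158 clonotypes) in replicate 4. Among anti-CTLA-4 replicates 1 to 5 it was 0%, 3.59%, 1.38%, 1.74% and 1.89%, so the groups overlapped. The limit that a count of 0 allows was 1.59% to 3.13% in those isotype mice and 8.57% in anti-CTLA-4 replicate 1, which had 35 IgA clonotypes. The largest of 13 IgA lineages was ARLIYYAMDY of anti-CTLA-4 replicate 2, with an IgA count of 1637 and an IgG count of 162, mostly IgG2b. Its main junction also occurred in replicate 3, with a count of 177 against 1797. In isotype replicate 4 the 10 IgA clonotypes formed 2 lineages, with counts of 310 and 192. IgE held 3 IGHV1-9 lineages, with IgE counts of 330 in isotype replicate 3, 125 in anti-CTLA-4 replicate 3 and 6 in anti-CTLA-4 replicate 2.

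IgM junctions of IGHV1-9 differed from those of other V calls in the same mice in length and J use. Mean CDR3 length was 11.4 to 11.6 residues for IGHV1-9 and 11.8 to 11.9 for other V calls. IGHV1-9 was shorter in 10 of 10 mice, with a mean difference of -0.317 residues (SD 0.0644, n = 10; two-sided exact sign-flip permutation p = 0.00195, adjusted p = 0.00293 over 6 junction results). This p is the smallest that 10 mice allow.

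IGHJ3, at 29.0% of IGHV1-9 IgM clonotypes, was higher than in other V calls (24.5%) in 10 of 10 mice, by 4.49 percentage points (exact sign-flip permutation p = 0.00195, adjusted p = 0.00293). IGHJ2 was also higher in 10 of 10 mice, by 2.10 points (34.1% against 32.0%), with the same exact p and adjusted p. IGHJ1 was lower in 10 of 10 mice, at 11.5% against 15.7%, a difference of -4.21 points with the same exact p and adjusted p. IGHJ4 was lower in 9 of 10 mice, at 25.4% against 27.8% (-2.38 points, exact sign-flip permutation p = 0.00391, adjusted p = 0.00469). Restricted to clonotypes with a count of at least 2, the IGHJ2 and IGHJ4 differences no longer passed (1.67 and -1.52 points, each with an exact permutation adjusted p of 0.253), while those of IGHJ1 and IGHJ3 did. The groups' means for IGHV1-9 were close, for example 29.0% and 28.9% for IGHJ3 in isotype and anti-CTLA-4 mice.

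**Figure D4:**
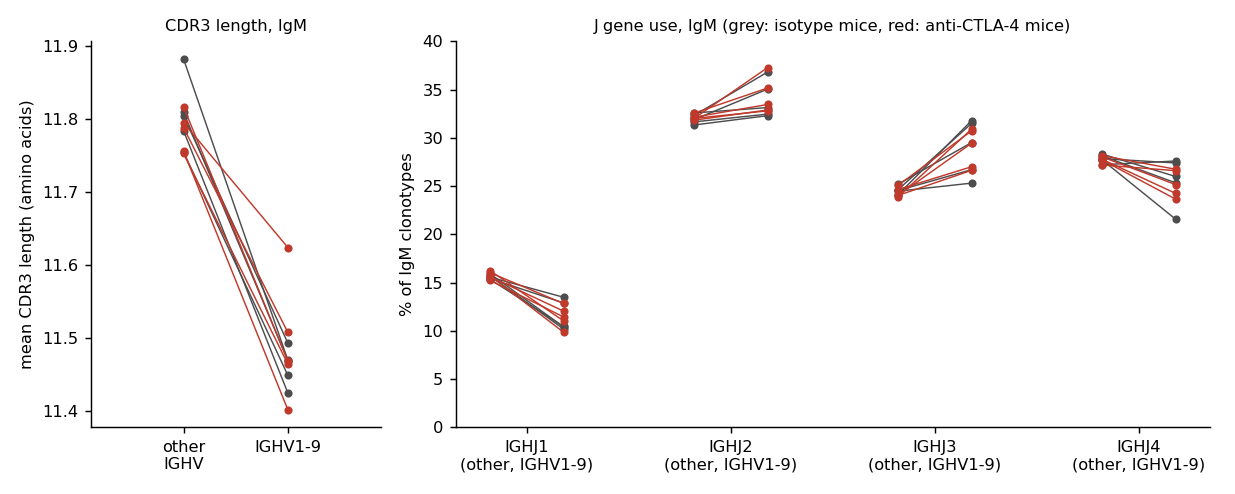
Left, mean CDR3 length in amino acids of IgM clonotypes of other IGHV calls and of IGHV1-9; right, percent of IgM clonotypes with each J gene for both. Each line joins the values of 1 mouse, grey for isotype and red for anti-CTLA-4; IGHV1-9 lies lower for length and IGHJ1 and higher for IGHJ2 and IGHJ3 in all 10 mice.

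Motifs that D segments encode are given without a test. Their shares of IgM clonotypes were close for IGHV1-9 and other V calls: YYGS in 10.1% against 11.2%, TTVV in 3.30% against 3.26%, YDYD in 3.56% against 3.69% and NWD in 0.972% against 1.12%. In IgG, YYGS occurred in 19 of 147 IGHV1-9 clonotypes (12.9%) against 14.1% for other V calls. TTVV occurred in 2 IGHV1-9 IgG clonotypes (1.36% against 2.82%), YDYD in 1 (0.680% against 2.50%) and NWD in 1 (0.680% against 0.817%). Clonotypes of 1 lineage share their CDR3, so these IgG numbers count a few loops several times.

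IgG loops of IGHV1-9 did not differ detectably in length from its IgM loops. In the 7 mice with at least 3 IGHV1-9 IgG clonotypes the mean difference was -0.82 residues (SD 1.88), with IgG shorter in 6 of 7 mice (exact sign-flip permutation p = 0.266, adjusted p = 0.266). Anti-CTLA-4 replicate 3, with its 16- and 17-residue loops, was the exception at a mean of 14.7 residues. Without it the difference was -1.51 (exact permutation adjusted p = 0.0313), and with 1 value per lineage it was -0.71 (exact permutation adjusted p = 0.0469).

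V mismatches, a measure of somatic mutation that also holds any sequencing errors, were more frequent in IGHV1-9 IgG than in its IgM. IgM averaged 0.0470 per 100 bases (SD 0.0185, n = 10). IgG had 0.752, 0.478 and 0.211 in isotype replicates 1 to 3, and 5.29, 0.303, 0.255, 0 and 0.479 in anti-CTLA-4 replicates 1 to 5. The value of 0 rests on 2 clonotypes, and 10 of the 15 mismatches behind the value of 0.752 lie in 1 clonotype of count 1. IgG lay above IgM in 7 of 7 mice with at least 3 IgG clonotypes, by a mean of 1.06 (SD 1.85; exact sign-flip permutation p = 0.0156, the smallest that 7 mice allow, adjusted p = 0.0469 over 3 mismatch results). Without anti-CTLA-4 replicate 1 the mean difference was 0.362, above 0 in 6 of 6 mice, with an exact permutation adjusted p of 0.0938, the unadjusted p being the smallest that 6 mice allow.

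Against IgG of other V calls, at 0.715 per 100 (SD 0.221, n = 10), IGHV1-9 IgG was higher in 2 of 7 mice. These were anti-CTLA-4 replicate 1 and isotype replicate 1. In isotype replicate 1, 10 of the 15 mismatches lay in 1 clonotype of count 1, whose junction held more counts under IGHV1-50. The mean difference of 0.517 (SD 1.81) did not pass (exact sign-flip permutation p = 0.969, adjusted p = 0.969). It became -0.164 without anti-CTLA-4 replicate 1. In a run chosen after seeing the data, it was 0.438 without the rearrangements that held more counts under another V call.

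Most IGHV1-9 IgG lineages were unmutated or nearly so, and a few carried many mismatches. In 36 of 55 the most counted IgG sequence had no V mismatch, including 13 of the 17 with an IgG count of 50 or more. By clonotype, the mean over mice of the IgG share with no mismatch was 51.0% for IGHV1-9 (SD 26.4, n = 8) and 43.9% for other V calls (SD 7.65, n = 10). The 8 mice include anti-CTLA-4 replicate 4, at 100% from 2 clonotypes. Within the 7 mice with at least 3 IGHV1-9 IgG clonotypes the difference was -3.30 percentage points and did not pass (exact sign-flip permutation adjusted p = 0.641). Count-weighted mismatch frequencies of the 4 largest IGHV1-9 IgG lineages were 0.00885 to 0.0728 per 100. By contrast, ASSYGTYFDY of anti-CTLA-4 replicate 1 had 16 mismatches in its most counted sequence and up to 21, and VKYHGNYFDY of the same mouse, with an IgG count of 25, had 19 and up to 21. Both were mainly IgG2b and held no IgM or IgD, and together they held 12 of the 14 IgG clonotypes of that mouse. Each was still closer to IGHV1-9 than to any other germline V of the same length, with 42 and 44 bases to the next, IGHV1-56. Next came 2 clonotypes of count 1 with 10 mismatches, and both are among those whose junction held more counts under another V call.

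The place of the mismatches in IgG and IgM is given without a test. Over 147 IgG clonotypes there were 358 mismatches, 24.3% of them in CDR1 or CDR2, which take 16.8% of the positions, and 39.1% at hotspot bases, which take 16.8% of the germline. Over 6069 IgM clonotypes there were 786 mismatches, with 16.2% in the CDRs and 25.8% at hotspots. Clonotypes of a lineage share mutations, and anti-CTLA-4 replicate 1 held 211 of the 358 IgG mismatches. Without that mouse 147 mismatches were left, 24.5% of them in the CDRs and 33.3% at hotspots. Single mice with at least 15 IgG mismatches ranged from 13.3% to 36.8% in the CDRs and from 13.3% to 43.1% at hotspots. Both low ends are isotype replicate 1, where 10 of 15 mismatches lay in a count-1 clonotype whose junction held more counts under IGHV1-50. In anti-CTLA-4 replicate 3, 10 of 24 lay in a count-1 clonotype whose junction held more counts under IGHV1-55. Of IgM clonotypes 89.4% had no mismatch, and of IgG clonotypes 41.5%.

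**Figure D5:**
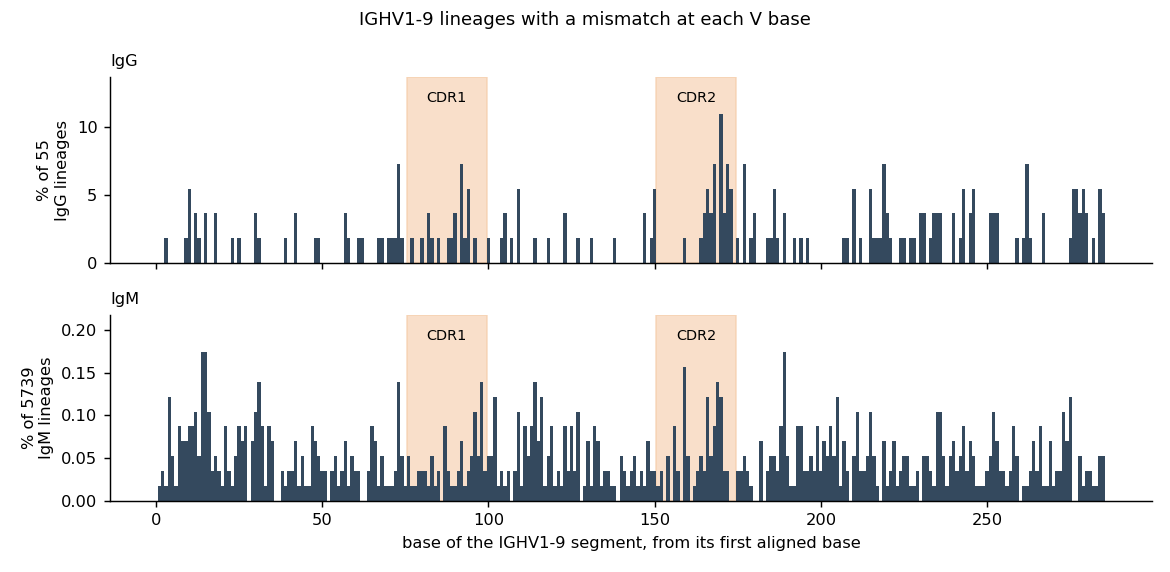
Percent of IGHV1-9 lineages with a mismatch at each base of the V segment, numbered from its first base, for 55 IgG lineages (top) and 5739 IgM lineages (bottom, other scale); shading marks CDR1 and CDR2. The tallest IgG bar is at base 170 in CDR2, with 6 of 55 lineages.

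A few substitutions recurred in separate IgG lineages, with positions counted from the first base of the segment. G92A, a hotspot base of CDR1 that changes codon 31 (G31D), was found in 4 lineages of 4 mice. G170A, a hotspot base of CDR2 (S57N), was found in 3 lineages of 3 mice, as were G166A of CDR2 (G56S) and 4 framework changes, namely C215T (A72V), A284T (Y95F) and the silent C10T and T219C. The remaining 5 with 3 lineages, 1 of them in CDR1 and 4 in the framework, came from 2 mice each. The lineages counted include 2 of count 1 with 10 mismatches, whose junction held more counts under another V call. Their part in these numbers was not tested. No substitution was common in IgM, where the most frequent, G15A, occurred in 8 of 6069 clonotypes.

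IgM mismatches of IGHV1-9 by group were 0.0339, 0.0509, 0.0320, 0.0374 and 0.0398 per 100 in isotype replicates 1 to 5 and 0.0491, 0.0963, 0.0493, 0.0373 and 0.0435 in anti-CTLA-4 replicates 1 to 5. The groups overlapped, and the difference of 0.0163 did not pass (two-sided exact permutation p = 0.119, adjusted p = 0.179; smallest possible p = 0.00794). It passed as the share of clonotypes with no mismatch (-2.48 percentage points, exact permutation adjusted p = 0.0357) and with 1 value per lineage (0.0120, exact permutation adjusted p = 0.0476). The share of IGHV1-9 IgM clonotypes with a count of 1 was 54.4% in isotype and 71.1% in anti-CTLA-4 mice, and its part in this difference was not tested. Among clonotypes with a count of at least 2 the difference was 0.0305 (exact permutation adjusted p = 0.167). In IgM of other V calls the group means were 0.117 and 0.120.

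Among 63 V calls with IgG clonotypes in at least 5 mice, those whose IgG share followed IGHV1-9 most closely over the 10 mice were IGHV1-58 (Spearman rho 0.81), IGHV7-3 (0.70) and IGHV2-2 (0.68). These values are a description. They share libraries and the mice without these calls, since all 3 were at 0% in isotype replicates 4 and 5 and in anti-CTLA-4 replicate 4, and their mean shares were 0.265% to 0.601%.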

How the data were processed

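Each mouse had a table with AIRR column names, per the file headers, which gave a row per assembled sequence with gene calls, germline alignment and a whole-number count deposited by the authors. Libraries were made with the SMART-Seq Mouse BCR kit, which carries molecular identifiers, per the labels' protocols. For the aligner, assembler, germline set and use of those identifiers: not given in the sources used here. No normalisation of the deposited counts was visible. Each mouse is 1 replicate, grouped by its treatment label.

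Productive heavy chains alone were used, with alleles removed. IgG counted once per rearrangement whatever its subclass. Mismatches were counted over at least 200 aligned V bases before the junction, in the most counted sequence of a clonotype. Where the file gave no CDR3, the junction was translated. Use in IgM and IgD was tested with edgeR 4.0.16 (glmQLFit, TMM, filterByExpr) on clonotype numbers per V call, with DESeq2 1.42.0 as an alternative, at an adjusted p of 0.05. Standard errors came from the F statistic. Tests of 1 value per mouse were exact permutation or sign-flip tests with Benjamini-Hochberg adjustment in families of 3 mismatch and 6 junction results. Scripts were tested on simulated data.

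The gene, lists and tests were chosen with earlier results of these data known. Named items are IGHV1-9, its largest IgG lineage per mouse, every lineage with an IgG count of at least 1000, the 3 V calls most alike in IgG use, the 3 nearest germline relatives and 4 CDR3 motifs. One further CDR3 feature of the rule is not reported here. Other lineages and substitutions named were chosen after their values were seen. The gene table (GRCm38.p6) served for names and neighbours, and no coordinates are given because the files name no build.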

Additional observations from a re-analysis of the deposited data

Results flagged for a closer look

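In 10 of 43 groups of 4 or 5 mice tested, 1 mouse lay far from the rest. The criterion would mark about 1 in 20 groups of independent normal values, but in 3 of the 10 the other mice were all at 0, and clonotype and count shares of a class are not independent. Anti-CTLA-4 replicate 5 held IGHV1-9 in 39.0% of its IgG counts (others 0.0975% to 4.86%). Isotype replicate 2 had 1.32% of IgG counts (others 0% to 0.177%). Anti-CTLA-4 replicate 3 had 7.73% of IgM counts (others 1.26% to 2.81%) and 13.3% of IgE clonotypes, which is 2 of 15. In IgD, anti-CTLA-4 replicate 4 had 3.06% of clonotypes (others 3.35% to 3.47%). Isotype replicate 4 had 6.33% of IgA clonotypes and 0.499% of IgA counts, the other isotype mice having none, and isotype replicate 3 had 1.09% of IgE clonotypes, 1 of 92. Mismatches stood out in IgM of anti-CTLA-4 replicate 2 (0.0963 per 100, others 0.0373 to 0.0493) and in IgG of anti-CTLA-4 replicate 1 (5.29, others 0 to 0.479).

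Among non-productive sequences, which no comparison used, IGHV1-9 made up 24.7% of IgG in anti-CTLA-4 replicate 5 (74 of 299) and 6.67% in replicate 3 (36 of 540), above the isotype range of 0% to 4.53%. These are the mice with the 4 largest productive IGHV1-9 IgG lineages.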

How the results depend on the processing

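IGHV1-9 use in IgM and IgD kept its sign and did not pass under any alternative run. Its log2 fold change was 0.78 in IgM and 0.11 in IgD by deposited counts, and 0.00132 in IgM and 0.14 in IgD among clonotypes with a count of at least 2. It was 0.06 to 0.12 in IgM and 0.04 to 0.11 in IgD with a mouse left out, and lay within those ranges with DESeq2, no TMM, no filter, lineages and shared rearrangements kept. The number of IGHV calls past the threshold in IgM, 1 in the main fit of edgeR, was 0 with DESeq2, deposited counts, lineages or clonotypes of count 2 and above, and ranged over 0 to 2 when a mouse was left out. Correlations of same-numbered mice ran from -0.107 to 0.259 over 92 V calls, and 2 of 5 isotype mice correlated best with their own number. These few values cannot settle whether a replicate number marks a shared litter, batch or day, which the labels do not say. With the replicate number as a block, 4 IGHV calls passed in IgM, the IGHV1-9 log2 fold change was 0.09 in IgM (edgeR adjusted p = 0.465) and 0.08 in IgD (0.852), and the IgM mismatch difference was 0.0163 (exact permutation p = 0.125). With each mouse left out, the IgM mismatch difference ran from 0.00599 to 0.0207, the IgG minus IgM mismatch difference from 0.362 to 1.21 (no longer passing without any of the 7 mice in it, exact permutation adjusted p 0.0833 to 0.0938), its difference from other V calls from -0.164 (without anti-CTLA-4 replicate 1) to 0.661, and the IgG minus IgM length from -1.51 to -0.62. The IgM mismatch result passed with 1 value per lineage (0.0120) and as the unmutated share (-2.48 points), the IgG minus IgM length passed with 1 value per lineage (-0.71), and with a count of at least 2 IGHJ2 (1.67 points) and IGHJ4 (-1.52) no longer passed; the cause was not tested. The IgG share difference of 4.25 points was 8.82 by deposited counts and 1.83 to 5.35 with a mouse left out, and the difference of 5 in IgG lineages was 3.25 to 6.75 with a mouse left out and 2.4 with a count of at least 2. Chosen after seeing the data, counting each constant gene apart, assigning shared lineages to 1 mouse or leaving out junctions with more counts under another V call gave IgG share differences of 4.28, 4.29 and 4.25. Depth limits the switched classes, with 117 to 776 IgG, 35 to 212 IgA and 0 to 96 IgE clonotypes per mouse.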
